A study of Mus musculus with 4 samples.

Results

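The response of naive CD8 T cells to IL-15C was read from 2 of the 4 RNA-seq libraries of the series, 1 of naive cells from mice given IL-15C and 1 of naive cells from untreated mice. IL-15C joins the cytokine IL-15 to the receptor chain IL-15Ra that presents it, and was given 4 times a week. Untreated mice were labelled wild type and received PBS, and all mice were C57BL/6. Spleen cells were taken over anti-CD8 microbeads and then sorted as CD44-CD49d- (naive), or as CD44hiCD49d- for the virtual memory (VM) cells that gave the other 2 libraries, of IL-15C and of untreated mice. Each group came from 3 mice by its title, with no statement on pooling. The IL-15C naive library held 45649628 reads assigned to genes and the untreated naive library 48950547, so that 1 read was worth 0.022 CPM and 0.0197 CPM (read counts per 1e6 reads, scaled with TMM factors). With 1 library per side there is no replicate check, and each 95% interval on a log2 ratio covers counting error only. A gene is called higher or lower with IL-15C, or counted, where its ratio was at least 2-fold and its interval lay beyond 2-fold throughout. Genes with no read in any 1 of the 4 libraries were not analysed here. In bulk samples, a change in the number of cells of a kind and a change in RNA per cell cannot be told apart.

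IL-15 is normally held by IL-15Ra on the surface of a cell and presented to the IL-2/15 receptor beta chain (Il2rb) and the common gamma chain (Il2rg) of another, which signal through JAK1, JAK3 and STAT5. Naive CD8 T cells are small resting cells that express little Il2rb, and memory-type CD8 cells express more and depend on IL-15 for upkeep and turnover. A resting cell that enters the cycle first expresses E2F-driven genes of DNA replication and later the genes of mitosis. Interferon-induced genes, by contrast, are switched on by STAT and IRF proteins bound to the interferon-stimulated response element.

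Cd44, the gene that set the naive gate, matched the label in both libraries. Cd44 had 17.2 CPM in IL-15C naive cells and 8.65 CPM in untreated naive cells, beside 243 CPM in IL-15C VM and 232 CPM in untreated VM cells. Both naive libraries thus lay far below both VM libraries for the sorted marker, with a log2 ratio of 0.98 [0.82, 1.16] between the naive pair. Itga4, which encodes the other sorted marker CD49d, had 290 CPM in IL-15C naive and 614 CPM in untreated naive cells, with 50.9 and 351 CPM in the VM pair, so that the transcript was abundant in cells sorted as negative for the protein. Transcripts of Cd8a, Cd8b1 and Cd3e differed little between the naive libraries, with log2 ratios of 0.20, 0.36 and -0.03. Among the genes that mark naive cells, Ccr7 had 427 CPM with IL-15C and 382 CPM without, and Tcf7 had 1510 and 1472 CPM.

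Of 12174 genes compared, 603 (4.95%) were higher in IL-15C naive cells and 242 (1.99%) were lower. The median log2 ratio over all genes compared was 0.02. With the deposited TPM in place of scaled counts this median shifted by -0.23, and the genes higher in IL-15C naive cells were 490 and the genes lower in IL-15C naive cells 572. With the trend by transcript length described below removed they were 572 and 119, over genes with an annotated length alone. Among VM cells, compared in the same way, 8.6% of 12370 genes were higher and 8.83% were lower. Genes compared in both subsets included 495 that were higher in both, 94 that were higher in naive cells and neither in VM cells, 119 lower in both and 100 lower in naive cells and neither in VM cells. These counts set each gene against the rule in each subset and do not test the difference between subsets. Members of 45 lists of genes of known function are read against those shares. Of 237 listed genes counted as higher or lower, 80 have exons that overlap another annotated gene, and no source used here says whether the counting used strand.

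**Figure D1:**
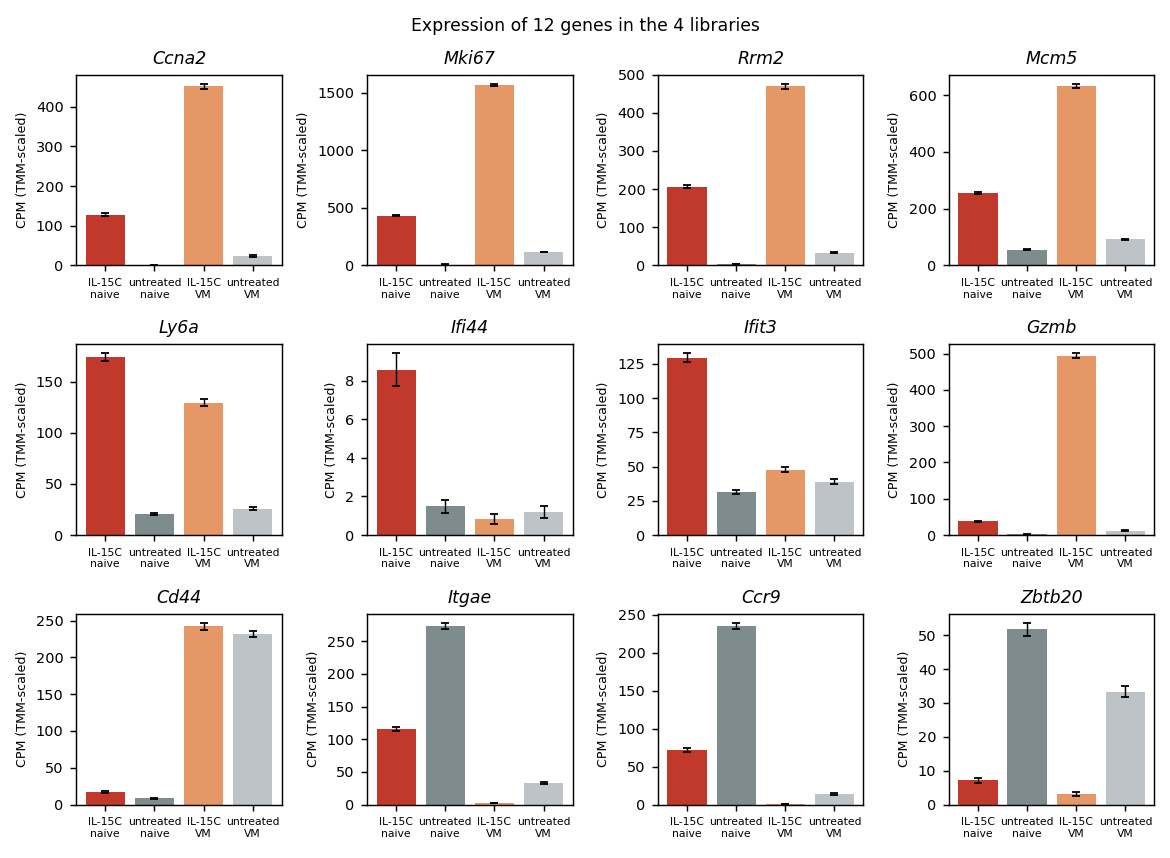
TMM-scaled CPM (vertical axes, from 0) of 12 genes in the 4 libraries, 1 bar per library, IL-15C naive at the left of each panel and untreated naive beside it. Black bars are approximate 95% counting intervals (Poisson). Ccna2 stands at 128 CPM in IL-15C naive and 1.12 CPM in untreated naive cells, Ifi44 is highest in IL-15C naive cells, and Itgae, Ccr9 and Zbtb20 are highest in untreated naive cells.

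Cell cycle genes had the highest ratios among the lists. Ccna2, encoding cyclin A2 of S phase and mitosis (chr3:36564865-36573038, GRCm38), had 128 CPM in IL-15C naive and 1.12 CPM in untreated naive cells, and 452 CPM in IL-15C VM and 23.8 CPM in untreated VM cells. Its log2 ratio was 6.78 [6.46, 7.24] in naive cells and 4.24 [4.15, 4.33] in VM cells. The untreated naive library thus held almost none of this transcript (57 reads), and the IL-15C naive library held it at 28.4% of the IL-15C VM level. The largest ratio was that of Pbk, a mitotic kinase, which had 25.5 CPM in IL-15C naive and 0.118 CPM (6 reads) in untreated naive cells, a log2 ratio of 7.31 [6.63, 9.21].

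Genes that act before and at the start of S phase differed among themselves. Of 11 cyclins, kinases and partners of G1, 5 were higher and none was lower. Ccne2, encoding cyclin E2, had 25.9 CPM in IL-15C naive and 0.315 CPM in untreated naive cells, and its close relative Ccne1 had 51.5 CPM and 11.6 CPM. Both E cyclins were therefore counted as higher, with log2 ratios of 6.18 and 2.15. The D cyclins that couple cytokine signals to the cycle were not counted: Ccnd2 had 517 CPM with IL-15C and 698 CPM without, and Ccnd3 had 155 and 135 CPM. Cdk4 and Cdk6, their kinase partners, gave log2 ratios of 0.85 and 0.57. Cdkn2c, the inhibitor p18 of those kinases, had 36.1 CPM in IL-15C naive and 3.5 CPM in untreated naive cells and was the single member counted among 17 inhibitors and quiescence genes, a list with a median of -0.26. Cdkn1b, encoding the inhibitor p27, differed by -0.14 and Foxo1 by -0.46.

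Of 22 regulators of the E2F, MYB and MYC families, 10 were higher. E2f8 and E2f7, repressors that are themselves E2F targets, had log2 ratios of 5.93 and 5.45, above E2f1 at 4.18, E2f2 at 3.07 and E2f3 at 1.58. Mybl2 and Foxm1, which drive the mitotic genes, had 28.0 and 53.1 CPM in IL-15C naive cells and 1.77 and 4.42 CPM in untreated naive cells. The repressor gene Mxd3 had 28.5 CPM and 0.236 CPM. Myc did not follow these genes, at 108 CPM in IL-15C naive and 105 CPM in untreated naive cells, nor did E2f4 and Max, all with log2 ratios between 0.03 and 0.04.

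Replication genes were higher almost throughout: 28 of 32 were counted, none was lower, and the list median was 2.13, beside 31 of 32 and 2.38 in VM cells. Cdc6, which loads the MCM helicase at origins, had 54.9 CPM in IL-15C naive and 1.08 CPM in untreated naive cells. The helicase subunits themselves were also present in untreated cells and had smaller ratios, with Mcm5 at 255 and 54.9 CPM and Mcm2 at 168 and 78 CPM. The loading and firing factors Cdc6, Mcm10, Orc1 and Cdc45 had ratios of 4.34 to 5.61, and the helicase subunits Mcm2 to Mcm7 had ratios of 1.11 to 2.21. Other loading and firing factors did not share the high ratios, with Gins2 at 3.73, Gins1 at 3.30, Gins3 at 1.53, Cdc7 at 1.48, Dbf4 at 1.11 and Cdt1 at 1.02. Cdt1, Gins4, Pole2 and Pola2 were the members not counted, at 0.74 to 1.02. In summed TPM, a level per transcript length, the list reached 2667 in IL-15C naive, 821 in untreated naive, 4567 in IL-15C VM and 1104 in untreated VM cells.

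Nucleotide supply genes had a wide range of ratios. Rrm2, the regulated subunit of ribonucleotide reductase, had 207 CPM in IL-15C naive and 3.24 CPM in untreated naive cells, Tk1 (thymidine kinase) 47.5 and 0.944 CPM, and Tyms (thymidylate synthase) 60.3 and 4.23 CPM. Rrm2, Tk1 and Tyms, all of deoxynucleotide supply, thus had log2 ratios of 3.82 to 5.98. Others of that supply had smaller ratios, with Dut at 2.08, Dctpp1 at 1.81 and Dck at 1.31. Impdh2 of purine synthesis and Mthfd2 of one-carbon supply were close to Dck, at 1.12 and 1.14. Of the purine and pyrimidine ring pathways, Gart had a ratio of -0.06, Atic of 0.15, Umps of 0.50 and Cad of -0.30, and 10 of the 22 genes were counted in all. Among 16 genes that copy DNA methylation and chromatin, 12 were higher (median 2.13), with Uhrf1 at 213 and 13 CPM and Dnmt1 at 393 and 181 CPM. Of 24 genes of DNA repair and the S phase checkpoint, 22 were higher (median 3.29). Rpa1 (0.70) and Fancb (0.94) were the members not counted. Of 18 histone genes compared, 7 were higher, H2afx among them at 99.3 and 18.7 CPM. Poly(A) selection captures replication-dependent histone transcripts poorly, and most of these had under 4 CPM in either naive library.

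Mitotic genes gave the highest list medians. Of 26 mitotic kinases and anaphase regulators, 24 were higher with a median of 5.0, beside 25 and 4.20 in VM cells. Cdk1, the kinase of mitotic entry, had 58.1 CPM in IL-15C naive and 0.944 CPM in untreated naive cells. Its partners Ccnb1 and Ccnb2 had 22.6 and 61.4 CPM with IL-15C and 0.57 and 0.904 CPM without, and the checkpoint kinase gene Bub1 had 52.4 and 0.472 CPM. All of these lay under 1 CPM in the untreated naive library. Cdc20, the activator of the anaphase-promoting complex, started from 4.52 CPM and had a smaller ratio of 3.05, and Cdc25b (0.99) and Pttg1 (securin, 0.43) were not counted. Every one of 37 spindle, kinetochore and cytokinesis genes was higher, with log2 ratios of 1.09 (Tubb5) to 6.81 (Kif15). Kif15, a spindle motor gene, had 91.1 CPM in IL-15C naive and 0.767 CPM in untreated naive cells. Among 17 condensin, cohesin and topoisomerase genes 11 were higher, led by Esco2 (6.5), which acetylates cohesin in S phase. Mki67 had 432 and 8.22 CPM and Top2a 665 and 13.4 CPM. Core cohesin genes were abundant in both libraries and not counted, with Smc1a at 0.85, Smc3 at 0.66 and Rad21 at 0.37.

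Naive cells held less mitotic transcript than VM cells, with or without IL-15C. Of the 26 mitotic genes, 18 had a higher ratio in naive than in VM cells, while 25 had a lower level in IL-15C naive than in IL-15C VM cells and 26 in untreated naive than in untreated VM cells. Summed TPM over the 26 mitotic genes was 1084 in IL-15C naive, 202 in untreated naive, 3697 in IL-15C VM and 397 in untreated VM cells. Over these genes the IL-15C naive CPM was between 11.9% and 166% of the IL-15C VM CPM, with a median of 29.4%. The median over the 32 replication genes was 58.4%.

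Promoters of cell cycle genes are known for a few short motifs, and 3 are shown because these genes gave some of the largest ratios. The windows run from 120 bases before to 20 after the start in RefSeq on GRCm38.p6, 5′ to 3′ on the gene's strand. Capitals mark the cell cycle homology region CHR (TTTGAA or TTCGAA), the NF-Y box CCAAT and the E2F motif (TTTCCCGC, TTTGGCGC, TTTCGCGC or TTTGCCGC), searched on both strands. Ccnb2 lies at chr9:70421535-70421674 (minus strand), Cdk1 at chr10:69352893-69353032 (minus) and Kif15 at chr9:122950961-122951100 (plus).
Ccnb2: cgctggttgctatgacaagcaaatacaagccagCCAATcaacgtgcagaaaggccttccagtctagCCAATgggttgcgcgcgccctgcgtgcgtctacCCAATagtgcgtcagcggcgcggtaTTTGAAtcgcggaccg
Cdk1: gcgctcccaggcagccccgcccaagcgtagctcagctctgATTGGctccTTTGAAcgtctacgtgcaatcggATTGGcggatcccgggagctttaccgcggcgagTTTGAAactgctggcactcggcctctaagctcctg
Kif15: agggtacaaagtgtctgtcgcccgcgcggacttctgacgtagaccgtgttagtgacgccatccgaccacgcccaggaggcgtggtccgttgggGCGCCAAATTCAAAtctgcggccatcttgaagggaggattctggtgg

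Ccnb2 holds 3 CCAAT boxes and a CHR, Cdk1 holds 2 of each, and in Kif15 an E2F motif abuts a CHR. Over the full 300 bases, 250 before to 50 after the start, a CHR was found in 63.6% of 22 promoters of the mitotic list and 69.4% of 36 of the spindle list, against 14.5% of 11440 promoters of the genes compared and 19.2% of all 32851 promoters. CCAAT was found in 72.7% and 66.7% of the same lists, against 38.4% of promoters of the genes compared. It was also in 75% of 20 promoters of sterol and fatty acid synthesis genes and 71.4% of 21 of MHC class I genes. Neither of those lists had a member counted, nor had proximal T cell receptor signalling, where CCAAT was in 13.0% of 23 promoters. The E2F motif was in 41.9% of 31 promoters of the replication list, and in 4.27% of those of the genes compared. In the mitotic and spindle lists, the latter with Kif15, its share was 4.55% and 5.56%. Over all genes counted as higher, the shares were 31.5% for CHR and 13.4% for E2F, and over genes counted as lower 8.92% and 1.41%. A match describes the letters in the window and is not a measured binding site.

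**Figure D2:**
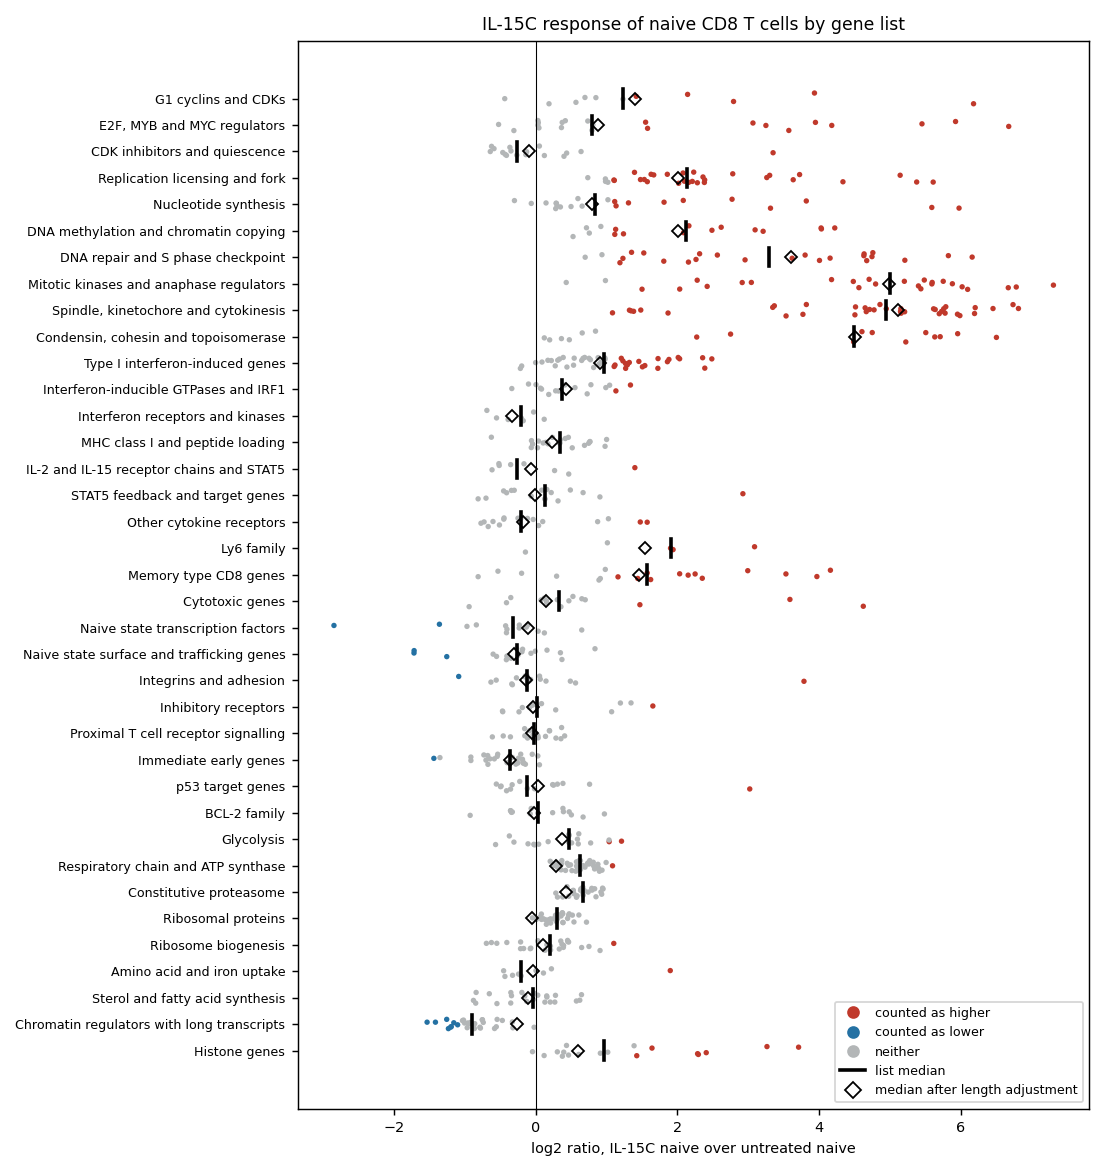
Log2 ratio of IL-15C naive over untreated naive cells (horizontal axis) for each member compared of 37 lists (rows), with genes counted as higher in red, as lower in blue and neither in grey. Black bars mark list medians and diamonds the medians after the trend with transcript length was removed: mitotic and spindle lists lie near 5, type I interferon-induced genes near 1, and the chromatin regulators with long transcripts have a median of -0.90 and an adjusted one of -0.26.

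Many interferon-induced genes were higher in naive cells, and few were in VM cells. Of 45 type I interferon-induced genes, 20 were higher in IL-15C naive cells, none was lower and 43 had a ratio above 0, with a median of 0.96. In VM cells 2 were higher and 2 lower, with a median of 0.10. Ifi44 (chr3:151730922-151749910) had 8.58 CPM in IL-15C naive and 1.49 CPM in untreated naive cells, and 0.817 CPM in IL-15C VM and 1.21 CPM in untreated VM cells. The IL-15C naive library stood alone at the top, with a log2 ratio of 2.49 [2.16, 2.90] in naive cells and -0.54 [-1.22, 0.08] in VM cells. The difference between these ratios, naive minus VM, was 3.08 with a counting interval of 2.37 to 3.79. Such an interval lay above 0 for 43 of the 45 genes, and for 40.1% of the 11927 genes compared in both subsets, and 1 library per group allows no test of it.

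Several members that act against viruses were also higher in naive cells, while Ddx58, Ifit2, Ifih1 and Eif2ak2 were not counted (0.28 to 0.89). Ifit3 had 130 CPM in IL-15C naive, 31.6 CPM in untreated naive, 47.7 CPM in IL-15C VM and 39.0 CPM in untreated VM cells. Rsad2, encoding viperin, had 23.8, 5.86, 7.65 and 8.66 CPM in the same libraries, and Ifit1 had 74.9, 25.7, 11.8 and 20.2 CPM. For Rsad2 and Ifit1 the VM pair lay in the opposite order, with ratios of -0.18 and -0.77. Isg15, the ubiquitin-like modifier, had 45.6 CPM in IL-15C naive and 12.3 CPM in untreated naive cells, and its protease gene Usp18 had 68.6 and 24.9 CPM. Oasl2, Oas1a, Oas3 and Oas2 of the oligoadenylate synthetase family had ratios of 2.39, 1.73, 1.12 and 1.11. Mx1 and Mx2 had ratios of 1.32 and 1.27 in naive cells and -0.43 and -1.01 in VM cells. Reads of Ifit3 and Ifit3b, near-identical copies, may be divided between the 2 genes by the counting.

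The regulators of this group had smaller ratios than many of its targets. Irf7 had 138 CPM in IL-15C naive and 70.7 CPM in untreated naive cells (0.96), Irf9 differed by 0.22 and Stat2 by 0.17. The receptor and kinase genes Ifnar1, Ifnar2, Ifngr1, Ifngr2, Jak1, Jak2 and Tyk2 lay between -0.69 and 0.12, and none of the 7 was counted. Slfn5 and Slfn8 were the members with ratios below 0, at -0.21 and -0.20, and in VM cells both were lower, at -3.46 and -1.31. Genes of interferon-inducible GTPases and Irf1, which answer mostly to interferon gamma, had a median of 0.37 with 2 of 16 counted. These were Iigp1 (65.1 CPM in IL-15C naive, 25.7 CPM in untreated naive) and Gbp10 (87.9 and 40.0 CPM). In VM cells 4 of the 16 were lower and the median was -0.56. Ifng itself had 0.616 CPM in IL-15C naive and 0.157 CPM in untreated naive cells, under the minimum of 1 CPM for a comparison. The 22 genes of MHC class I and peptide loading had a median of 0.34 with none counted, the nearest being Pdia3 (1.0) and Psme2 (0.98). B2m differed by 0.42 and H2-K1 by 0.24.

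The interferon-stimulated response element was searched as GAAA, any 2 bases and GAAA again, on both strands, and 3 promoters are shown for genes with ratios of 1.54 to 2.01 in naive cells. Windows and build are as above, and capitals mark the element. Ifit1 lies at chr19:34640769-34640908 (plus strand), Isg15 at chr4:156200799-156200938 (minus) and Rsad2 at chr12:26456433-26456572 (minus).
Ifit1: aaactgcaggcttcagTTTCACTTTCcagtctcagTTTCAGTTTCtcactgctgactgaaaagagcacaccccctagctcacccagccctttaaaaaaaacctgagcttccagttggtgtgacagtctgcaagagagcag
Isg15: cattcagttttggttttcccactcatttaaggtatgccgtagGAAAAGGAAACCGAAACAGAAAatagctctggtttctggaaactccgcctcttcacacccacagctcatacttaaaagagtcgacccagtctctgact
Rsad2: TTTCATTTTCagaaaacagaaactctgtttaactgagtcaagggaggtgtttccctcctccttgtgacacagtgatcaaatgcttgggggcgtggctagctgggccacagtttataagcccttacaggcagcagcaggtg

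Ifit1 holds 2 separate elements and Isg15 a run of 3 that overlap. The element was found in 50% of 42 promoters of the type I interferon list and 75% of 12 of the GTPase list, against 3.22% of promoters of the genes compared. Over all genes counted as higher its share was 5.06%. The GAS element searched as TTCNNNGAA, to which STAT homodimers bind, was in 7.00% of promoters of genes counted as higher and 6.97% of those of the genes compared. By list, its share was 16.7% of promoters of the type I interferon list and 58.3% of those of the GTPase list. 

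**Figure D3:**
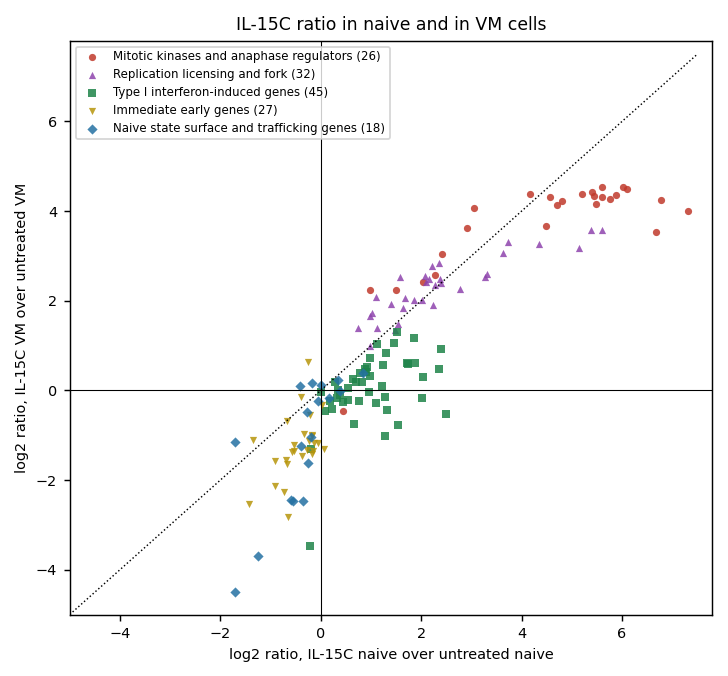
Log2 ratio of IL-15C over untreated in naive cells (horizontal axis) and in VM cells (vertical axis) for 5 gene lists, 1 point per gene, with the number of genes in brackets and the dotted line marking equal ratios. Mitotic genes lie high on both axes with naive ratios of up to 7.31, most interferon-induced genes lie to the right of the dotted line around a VM ratio of 0, and immediate early genes lie lower on the VM axis (median -1.30) than on the naive axis (median -0.37).

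Of 5 Ly6 genes compared, whose proteins include the activation markers Ly6C and Sca-1, 3 were higher. Ly6a, encoding Sca-1 (chr15:74994877-74998031), had 174 CPM in IL-15C naive, 20.4 CPM in untreated naive, 129 CPM in IL-15C VM and 25.6 CPM in untreated VM cells. IL-15C naive cells thus held the highest level of the 4 libraries, with a log2 ratio of 3.09 [3.00, 3.19] in naive cells and 2.34 in VM cells. Ly6c2 had 585 CPM in IL-15C naive and 156 CPM in untreated naive cells, below the 1536 and 827 CPM of the VM pair. Ly6c1, a near copy of it that may share its reads, had a ratio of 1.94. Ly6e, which had 1254 and 621 CPM, missed the rule at 1.01 [0.99, 1.03]. These genes are interferon-responsive in mice as well.

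Of 19 genes typical of memory CD8 cells that could be compared, 12 were higher (median 1.58), at IL-15C naive levels of 1.10 CPM (Klrk1) to 125 CPM (Lgals1). Eomes, a transcription factor of IL-15-responsive memory cells, had 105 CPM in IL-15C naive and 38.5 CPM in untreated naive cells, and 365 and 219 CPM in the VM pair. Tbx21 (T-bet) had 18.5 CPM and 3.58 CPM, and the chemokine receptor gene Cxcr3 31.9 and 10.3 CPM. These factors were therefore higher and still below either VM library. Genes that VM cells carry in quantity remained scarce in naive cells: Ccr2 had 2.49 CPM in IL-15C naive, 0.118 CPM in untreated naive and 211 CPM in IL-15C VM cells, and Klrc1 (NKG2A) 2.51, 0.177 and 203 CPM. S100a6 had 7.77 CPM, 0.393 CPM and 284 CPM. Over all 19 memory genes compared, the IL-15C naive CPM was 1.18% to 77.7% of the IL-15C VM CPM, with a median of 13.2%. The median over the 12 genes counted as higher was 5.69%. Whether VM cells within the naive gate had a part in the memory genes was not tested.

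Cytotoxic genes were higher in 3 of 16, all granzymes. Gzmb (chr14:56258836-56262334) had 37.9 CPM in IL-15C naive, 1.49 CPM in untreated naive, 495 CPM in IL-15C VM and 12.1 CPM in untreated VM cells. The log2 ratio was 4.62 [4.33, 5.02], and the level with IL-15C was above that of untreated VM cells and 7.65% of that of IL-15C VM cells. Gzma had 8.05 and 0.629 CPM and Gzmm 4.22 and 1.49 CPM. Prf1, encoding perforin, lay on the other side, with 47.1 CPM in IL-15C naive and 90.2 CPM in untreated naive cells (-0.94 [-1.01, -0.86]), and was therefore not counted as lower. Nkg7, Srgn and Ctsw differed by 0.53, 0.47 and 0.16, and Tnf by 0.15.

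Receptor genes for IL-15 and most genes known as STAT5 targets were within 2-fold. Il2rb had 309 CPM in IL-15C naive and 223 CPM in untreated naive cells (0.47), Il2rg 732 and 607 CPM (0.27), and Il15ra 5.28 and 8.10 CPM (-0.61). Il2ra, the STAT5-driven alpha chain of the IL-2 receptor, had 3.34 and 1.24 CPM and was the 1 of 8 counted, beside 46.7 and 4.55 CPM in the VM pair. Of 17 STAT5 feedback and target genes only Socs2 was counted, at 1.03 CPM in IL-15C naive and 0.0983 CPM in untreated naive cells. Of other classic targets, Cish had 11.3 and 9.06 CPM (0.32), Pim1 147 and 78.1 CPM (0.91), Bcl2 225 and 285 CPM (-0.34) and Mcl1 436 and 455 CPM (-0.06). In VM cells Cish differed by 2.37. Other cytokine receptors counted as higher were Il18rap (29.0 and 9.69 CPM) and Il12rb2 (5.39 and 1.91 CPM), and Il6st, Tgfbr2 and Tgfbr3 had ratios of -0.77, -0.67 and -0.73. Among 13 inhibitory receptors, Lag3 was counted at 1.52 CPM in IL-15C naive and 0.452 CPM in untreated naive cells, and Pdcd1 (PD-1) was not (1.28 and 1.36 CPM).

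Most genes of the naive state were within 2-fold. Of 14 naive transcription factors 2 were lower, with a list median of -0.32 that was 0.04 without genes whose exons overlap another gene. Zbtb20, a zinc finger repressor (chr16:42875689-43634392), had 7.17 CPM in IL-15C naive, 51.7 CPM in untreated naive, 3.13 CPM in IL-15C VM and 33.4 CPM in untreated VM cells. Both IL-15C libraries lay well below both untreated ones, and the naive log2 ratio was -2.84 [-3.02, -2.68]. Its longest annotated transcript has 26901 bases, and after the length trend described below was removed the ratio was -1.51. Sox4 had 4.11 and 10.6 CPM (-1.36). Lef1, Satb1, Klf2, Ets1 and Tcf7 lay between -0.23 and 0.12, and Bach2 had -0.83 (-0.28 after the length trend was removed).

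Of 18 naive surface and trafficking genes 3 were lower. Ccr9, the gut-homing chemokine receptor gene, had 71.7 CPM in IL-15C naive, 235 CPM in untreated naive, 0.583 CPM in IL-15C VM and 14.1 CPM in untreated VM cells. Itgae, encoding CD103, had 115, 274, 2.50 and 33.0 CPM in the same order. Nrp2 had 6.51 CPM in IL-15C naive and 21.5 CPM in untreated naive cells. Ccr9 and Itgae were lower with IL-15C in both subsets, with larger ratios in VM cells (-4.49 and -3.70) than in naive cells (-1.71 and -1.25). Il7r and S1pr1 had ratios of -0.25 and -0.27, and Dapl1 had 267 and 150 CPM (0.84). Actn1, which is high in naive cells, had 451 and 596 CPM. Among integrin and adhesion genes Itga4 was lower (-1.08), and Selp was higher at 1.10 and 0.0393 CPM, a ratio of 3.79 [2.88, 7.89] on 2 reads in the untreated library.

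Immediate early genes were nearly all below 0 in naive cells, with 25 of 27 under 0, a median of -0.37 and 1 counted, while 18 of 27 were lower in VM cells with a median of -1.30. Fos had 40.0 CPM in IL-15C naive and 108 CPM in untreated naive cells, and 21.8 and 127 CPM in the VM pair. Junb had 152 and 286 CPM (-0.91) and Dusp2 67.0 and 126 CPM (-0.91). Such genes are known to respond within minutes to receptor signals and to cell handling. Of 20 proximal T cell receptor signalling genes none was counted and the median was -0.02, with Lck at 0.20 and Zap70 at -0.02. No BCL-2 family member was counted, with Bcl2l1 at 0.67 and Bmf at -0.92, and of 15 p53 targets only Gtse1, a gene also expressed in G2, was counted (3.02).

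Ratios of naive cells ran with transcript length. Across 11661 genes with an annotated length the Spearman correlation of log2 ratio with the longest GENCODE transcript was -0.426, a description over genes of the same 2 libraries, which are not independent replicates. In 10 classes of equal size by length, the median was 0.36 in the shortest (median length 612 bases), 0.07 in the fifth and -0.51 in the longest (median length 7926.5 bases). In VM cells the correlation was -0.287 and the same classes had medians of 0.31, -0.02 and -0.46. Of the 242 genes counted as lower, 183 had an annotated length, and the rest have no place in these classes. Those with a length were concentrated in the longest class, where they were 8.15% of the genes, against 0.343% to 1.72% in the other classes. The median length was 2787 bases for genes counted as higher, 6877 bases for those counted as lower and 3145 bases for all genes compared. RNA was kept for libraries when its integrity number was above a fixed limit, per the labels' protocols, and values per library are not among the labels used here, so the part of RNA integrity in this trend was not tested.

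**Figure D4:**
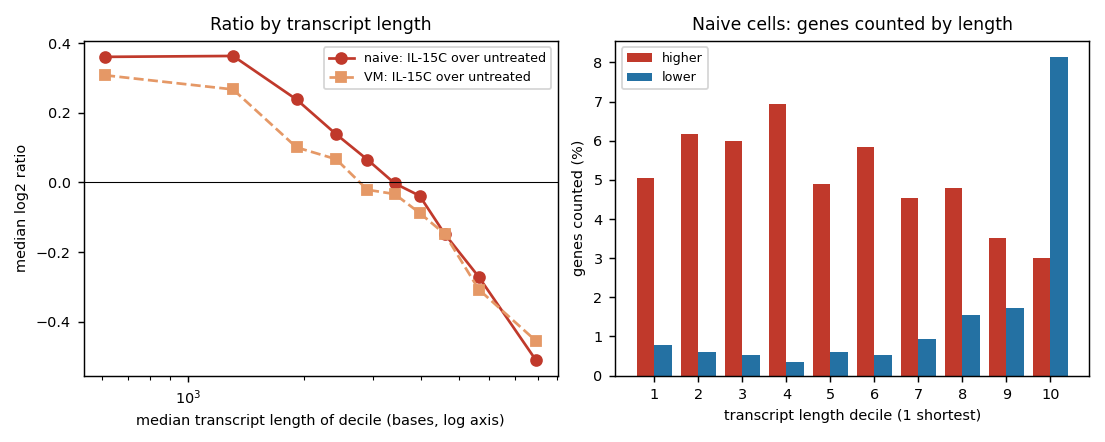
Left, median log2 ratio of IL-15C over untreated cells by class of transcript length (horizontal axis, bases, log scale) in naive (circles) and VM cells (squares). Right, percentage of genes in each class counted as higher (red) or lower (blue) in naive cells: the naive median is 0.36 in the shortest class and -0.51 in the longest, and 8.15% of the longest class was counted as lower.

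Of 592 genes counted as higher with an annotated length, 555 were still at least 2-fold higher afterwards, and of 183 counted as lower, 91 were still at least 2-fold lower. A list of 30 chromatin regulators with long transcripts, set up for this purpose, had 8 members counted as lower and a median of -0.90, which became -0.26 after removal. Kmt2c, a histone methyltransferase gene with a transcript of 14967 bases, had 191 CPM in IL-15C naive and 553 CPM in untreated naive cells, and its ratio of -1.53 became -0.61. Macf1 (785 and 2341 CPM) had a ratio of -1.58, and -0.33 after removal. Genes that stayed beyond 2-fold lower included Ppm1l (-2.64 before, -2.04 after), Carns1 (-1.83, -1.77), Tspan9 (-1.63, -1.58), the clock gene Per2 (-1.66, -1.37) and the potassium channel gene Kcna3 (-1.44, -1.65). After removal the medians were 4.99 for mitotic, 2.01 for replication and 0.92 for type I interferon-induced genes.

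Respiratory chain, proteasome and ribosomal protein lists had short transcripts, with median lengths of 1231.5, 1591 and 1049 bases. Their median ratios were above 0 and were lower after the length trend was removed. All 38 listed respiratory chain and ATP synthase genes had ratios above 0. Their median of 0.62 became 0.28 after the length trend was removed, and Ndufv2 alone was counted (94.2 and 44.4 CPM). The ATP synthase gene ATP8, outside the list and named after its values were seen, was lower (339 and 818 CPM, -1.27). Its exons overlap mt-Atp6 on the same strand. The 25 genes of the constitutive proteasome had a median of 0.67 (0.43 after removal) with none counted. For 33 ribosomal protein genes the median of 0.30 became -0.04. Glycolytic genes had 2 of 19 counted: Tpi1, triosephosphate isomerase, had 82.4 CPM in IL-15C naive and 35.5 CPM in untreated naive cells, and Gapdh had 535 and 260 CPM. In VM cells 8 of the 19 were higher. The glucose transporter genes Slc2a1 and Slc2a3 had ratios of -0.02 and -0.56, and the amino acid carrier genes Slc7a5 and Slc3a2 0.11 and 0.01. Slc43a1, another amino acid carrier gene, was counted at 4.38 and 1.14 CPM. Npm1, a nucleolar protein gene, was the 1 of 27 ribosome biogenesis genes counted (1846 and 859 CPM), and that list's median was 0.21, or -0.03 with the deposited TPM in place of scaled counts. No sterol or fatty acid synthesis gene was counted among 23, with Srebf2 at -0.88 and Fasn at -0.84.

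Markers of other cells were described by list. Macrophage and granulocyte markers summed to 3.65 CPM in IL-15C naive and 4.46 CPM in untreated naive cells over the 5 of 14 in the table, and erythroid and platelet markers to 4.99 and 5.6 CPM over 6 of 13. Csf1r had 0.044 CPM in IL-15C naive and 0.118 CPM in untreated naive cells, and Foxp3 0.814 and 1.04 CPM. Among B cell markers Cd22 was counted, at 1.01 CPM in IL-15C naive and 0.059 CPM in untreated naive cells, with 85 and 34.9 CPM in the VM pair, a ratio of 3.36 [2.46, 6.43] on 3 reads in the untreated naive library. The 7 of 11 B cell markers in the table summed to 563 and 488 CPM, of which Ighm held 542 and 466 CPM, and Cd79a stood at 0.176 and 0.177 CPM. Of 5 NK and gamma-delta T cell markers compared 4 were higher, Eomes and the gamma constant genes Tcrg-C1 (2.20 and 0.374 CPM), Tcrg-C2 (2.51 and 0.236 CPM) and Tcrg-C4 (1.85 and 0.275 CPM). Trdc, the delta constant gene, had 6.67 and 5.62 CPM. The 9 of 13 of these markers in the table summed to 119 and 45.7 CPM, mostly Eomes, and the NK genes Fcer1g (0.154 and 0.059 CPM) and Tyrobp (0.176 and 0.256 CPM) were near 0. The part of such cells in the ratios of memory genes was not tested. The 8 of 11 dendritic cell markers in the table summed to 130 CPM in IL-15C naive and 58.2 CPM in untreated naive cells, of which Bst2, also on the interferon list, held 121 and 52.1 CPM and was higher (1.21). Cd74 had 5.48 and 2.97 CPM (0.87), and the other dendritic cell markers in the table had under 1 CPM in both. The part of dendritic cells in the ratio of Bst2 was not tested. The 4 of 8 thymocyte and progenitor markers in the table summed to 154 CPM in IL-15C naive and 214 CPM in untreated naive cells, of which Tcf12 held 114 and 168 CPM, and none was counted.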

How the data were processed

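RNA of sorted mouse spleen CD8 T cells was sequenced as stranded poly(A) libraries (paired reads of 100 bases), 1 per group. The authors deposited whole-number read counts per gene, per the file headers, and these were the base of all ratios. FPKM values, deposited by the authors, served for an implied transcript length, and TPM values, deposited by the authors, for levels per length. Per the submitters' processing notes, which give no roles, the tools were HISAT2 2.1.0 and StringTie 2.1.3b on mm10, Trimmomatic 0.38 and FastQC 0.11.7, SAMtools 1.9, R 4.2.2 and edgeR. The table has 14 more columns of per-sample values, left unused here. The headings with ctrl were matched to untreated mice, labelled wild type.

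The table held 15466 genes with at least 1 read in each library, of which 15428 matched RefSeq (GRCm38.p6) by Entrez ID and 14057 had a GENCODE M21 transcript length. Totals were 45649628 reads for IL-15C naive, 48950547 for untreated naive, 45289920 for IL-15C VM and 43862816 for untreated VM cells. TMM factors from all 4 libraries (edgeR 4.0.16, R 4.3.3) were 0.996, 1.04, 0.946 and 1.02 in that order. Log2 ratios used a prior count of 2. Intervals at 95% come from the exact binomial (Clopper-Pearson) on the 2 raw counts. They cover counting error alone, because 1 library per group shows no spread between libraries. Without molecular identifiers reads may be copies of a molecule, which these intervals do not allow for. Their median width was 0.230. A gene was compared with at least 20 reads in the pair and 1 CPM in the higher library. The interval of a difference between naive and VM ratios covers counting error in the same way. No test and no p-value was computed. The length trend was a lowess curve (span 0.3) of log2 ratio on log2 length. The ratio and interval steps were tested on simulated counts. Promoter sequences are from RefSeq.

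The members and the 45 lists (879 entries, 802 distinct genes in the table) were chosen with earlier results of these data known. Genes named are the 5 markers Ccna2, Ly6a, Gzmb, Ifi44 and Zbtb20, any list member, and the 25 genes at each end of the ratios among those counted with at least 10 CPM, leaving out predicted and clone-named genes, pseudogenes, antigen receptor segments, and histone, mitochondrial and ribosomal protein genes. Not every such gene is printed, and some list members are not reported here. Alternatives were other scalings, filters, prior counts and thresholds, TPM ratios and removal of the length trend. Python 3.11.15, pandas 2.3.3, numpy 2.4.6, scipy 1.17.1, statsmodels 0.14.6 and matplotlib 3.10.9 were used.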

Additional observations from a re-analysis of the deposited data

Results flagged for a closer look

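Lag3 and Med12l were the genes counted in opposite directions in the 2 subsets, with 1 library per group and the difference not tested. Lag3, an inhibitory receptor gene, had 1.52 CPM in IL-15C naive, 0.452 CPM in untreated naive, 1.73 CPM in IL-15C VM and 7.77 CPM in untreated VM cells. It was higher with IL-15C in naive cells (1.66 [1.05, 2.50]) and lower in VM cells (-2.14 [-2.55, -1.80]). The 2 IL-15C libraries were thus close, and the 2 untreated libraries were apart. The naive minus VM difference was 3.92, with a counting interval of 3.15 to 4.69.

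Med12l, a Mediator subunit gene named after its values were seen, had 0.308 CPM in IL-15C naive, 1.55 CPM in untreated naive, 9.52 CPM in IL-15C VM and 3.12 CPM in untreated VM cells. Its ratio was -2.18 [-3.27, -1.50] in naive and 1.59 [1.33, 1.89] in VM cells, a difference of -3.94 with a counting interval of -4.81 to -3.08. The naive values rest on 14 and 79 reads. Its exons overlap Igsf10 and P2ry12 on the opposite strand, and the part of their reads was not tested.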

How the results depend on the processing

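No paired analysis was possible because each group had 1 library, and for the same reason no library could be left out. With deposited TPM, which shifted the median of all genes by -0.23, the count of genes higher in IL-15C naive cells was 490 and of genes lower in IL-15C naive cells 572, in place of 603 and 242. A minimum of 5 CPM left 150 lower genes, removal of the length trend left 119 (of genes with a length alone), and a 1.5-fold threshold gave 1364 higher and 997 lower genes. Under the other scalings, no filter, a prior count of 0.5, and for higher genes also TPM, 5 CPM and length removal, counts were 474 to 652 higher and 242 to 307 lower. Without genes with overlapping exons, chosen after seeing the data, 420 were higher and 168 lower, and 31 of the 50 extreme genes were left. Of those 50, 36 kept their call with the length trend removed and 50 under the other scalings, filters, prior count and TPM. Kcnq1ot1 had a ratio of 0.59 with the length trend removed, in place of -1.49. Its longest transcript has 93092 bases, where the fitted trend was -2.08, and whether the curve holds at that length was not tested. Lists with a median of at least 2-fold numbered 11, and 10 to 14 under the alternatives. The median gap between the shortest and longest length classes was 0.871, 0.957 with the length implied by counts and FPKM, and 0.950 over protein-coding genes, the last chosen after seeing the data. Gene ratios were recomputed under each setting, and pooled over genes and settings 5151 stayed within their interval, 1591 moved beyond it and 1 reversed. With deposited TPM 626 gene ratios moved and 161 did not, and with the length trend removed 511 moved and 275 did not. Library totals alone moved 316 and median-ratio size factors 138. Of the 45 list medians, 36 moved with TPM and 25 with the length trend removed. Genes with under 20 reads in the pair or under 1 CPM in the higher library were too shallow to compare.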

Other observations

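Outside the lists, 6 genes with at least 10 CPM that were counted in naive cells and not in VM cells had large differences between subsets, and they were named after their values were seen. Rgs1, a regulator of chemokine receptor signalling, had 21.9 CPM in IL-15C naive, 4.19 CPM in untreated naive, 10.4 CPM in IL-15C VM and 20.4 CPM in untreated VM cells. Its ratio was 2.37 in naive cells and -0.97 in VM cells. Ube2l6, the conjugating enzyme for Isg15, had 10.6, 1.04, 1.77 and 1.0 CPM in the same libraries, and was highest in IL-15C naive cells. Gbp11, a guanylate binding protein gene, had 23.8, 7.27, 2.29 and 3.48 CPM. Phf11c, one of several similar copies that may share reads, had a ratio of 1.74 in naive and -0.60 in VM cells. Cxcr5, the follicle-homing chemokine receptor gene, had 14.1 CPM in IL-15C naive and 5.33 CPM in untreated naive cells, with 61.4 and 79.3 CPM in the VM pair. Ms4a4c had 208 CPM in IL-15C naive and 75.1 CPM in untreated naive cells, with 169 and 203 CPM in the VM pair.

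Among genes lower in naive cells and neither in VM cells, Ago2, a core protein of microRNA silencing, had 70.9 CPM in IL-15C naive, 252 CPM in untreated naive, 166 CPM in IL-15C VM and 204 CPM in untreated VM cells. Its longest annotated transcript has 13800 bases, and its naive ratio of -1.83 became -0.96, within 2-fold, after the length trend was removed. Sytl2 had 5.96 CPM in IL-15C naive and 15.1 CPM in untreated naive cells, with 73.7 and 58.1 CPM in the VM pair. Malat1, a long nuclear RNA, was lower in both subsets, at 467 CPM in IL-15C naive and 1320 CPM in untreated naive cells, and 157 and 912 CPM in the VM pair. After removal of the length trend the naive ratios were -1.22 for Sytl2 and -1.11 for Malat1.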
